A study of Mus musculus with 3 samples.

Results

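The genes described here encode the translation initiation factors (eIFs) and elongation factors (eEFs) of the cytoplasmic ribosome, with kinases and binding proteins that carry the same name. They were chosen by symbol, as all rows that begin with Eif and a digit from 1 to 6 or with Eef and 1 or 2, which gave 64 of the 32531 genes in the tables. Initiation factors bring the initiator tRNA, the small ribosomal subunit and the capped mRNA together and scan for the start codon, and elongation factors then deliver aminoacyl-tRNA and move the ribosome along the message. Neurons are known to express eEF1A2 in addition to the ubiquitous eEF1A1, and both carry out the same step of elongation.

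The values come from translating ribosome affinity purification with RNA sequencing (TRAP-seq) of the cerebral cortex of adult, untreated C57BL/6J mice of the Kcnip2-TRAP line NIDA115. In this line a Kcnip2-EGFP/Rpl10a transgene tags ribosomes in cells that use Kcnip2 regulatory sequences, and an antibody to EGFP recovers tagged polysomes with their mRNA. The 3 libraries are replicates of 1 group of immunoprecipitates, so genes can be compared within a library and libraries with each other, while enrichment over whole cortex was not analysed here. Neither the sex of the mice nor whether each library has its own animals or a pool is stated in the labels. The p-values therefore describe the spread between these 3 libraries, part or all of which may be technical. As in any bulk sample, fewer cells of a type and less RNA per cell cannot be told apart.

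Depth was 11602248, 13635132 and 14174384 gene counts in replicates 1, 2 and 3. Levels are given as CPM, counts per 1e+06 counts of the TMM-scaled library, and, where genes are set against each other, as CPM per kilobase of all annotated exons of the gene. The summed CPM of 7 neuronal markers was 43436, 46897 and 51186 in replicates 1, 2 and 3, that of 5 astrocyte markers 1093, 1710.2 and 1603, and that of 5 oligodendrocyte markers 502, 599 and 422. The summed levels of 4 microglial and of 4 endothelial and mural markers ranged over 33.1 to 53.2 and 12.2 to 16.7 CPM. Of the latter 4, Rgs5 had 67, 129 and 128 counts in replicates 1, 2 and 3 and Flt1 32, 89 and 46. Pecam1 had 42, 8 and 1 counts, and Cldn5, an endothelial tight junction gene, 2, 0 and 0. The sum of 2 haemoglobin genes was 1.02 to 3.69 CPM. No pair of libraries agreed within sampling noise (chi-square per degree of freedom 12.2 to 28.4 over 12559 genes).

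A pair of coding stretches of the eEF1A genes shows how far their reads can be told apart. Eef1a2 lies on chr2:181147653-181157014 and Eef1a1 on chr9:78478449-78489151, both on the minus strand of GRCm38, the assembly that mm10 names. Their coding sequences were 80.1% identical over 1386 aligned columns, and the longest identical run was 23 bp. The first stretch, coding positions 55 to 174, is the 120-base window with the fewest differences, 14 in all, and the second, positions 604 to 723, is the window with the most, 35 in all. Positions count from 1 at the start codon, the sequences are those of the GENCODE transcripts on the coding strand, 5′ to 3′, and capitals mark the bases at which the genes differ.
Eef1a2 positions 55 to 174: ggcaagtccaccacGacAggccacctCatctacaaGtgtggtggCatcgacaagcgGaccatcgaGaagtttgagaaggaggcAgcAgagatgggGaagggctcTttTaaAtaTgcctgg
Eef1a1 positions 55 to 174: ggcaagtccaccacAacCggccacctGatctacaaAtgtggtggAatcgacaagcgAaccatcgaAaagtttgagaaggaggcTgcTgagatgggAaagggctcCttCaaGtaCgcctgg
Eef1a2 positions 604 to 723: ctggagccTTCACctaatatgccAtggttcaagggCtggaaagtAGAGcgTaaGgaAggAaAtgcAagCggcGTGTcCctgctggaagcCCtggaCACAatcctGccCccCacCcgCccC
Eef1a1 positions 604 to 723: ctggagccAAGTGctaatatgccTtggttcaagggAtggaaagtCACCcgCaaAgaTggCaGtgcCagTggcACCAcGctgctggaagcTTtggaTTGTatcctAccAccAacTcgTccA
Even the most similar window thus holds differences spread along its length. Sequence shared with other genes lay outside the pair: 57.9% of the 50-base words of the Eef1a1 transcript also occur in annotated transcripts of 20 other genes, 18 of them pseudogenes, whereas 0% of those of Eef1a2 do. For words of 100 bases the share was 26.1% for Eef1a1.

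Most members were present in the immunoprecipitates. Of the 64, 59 (92.2%) reached 1 CPM in all 3 libraries, against 37.3% of all genes, and the members together took 0.749%, 0.757% and 0.746% of the gene counts in replicates 1, 2 and 3. Eif4e1b, an oocyte form of the cap-binding protein, and Eif4ebp3, an eIF4E-binding protein, had 0 counts in every library, which allows up to 0.256, 0.222 and 0.213 CPM by counting error alone. The eIF4E-binding repressor gene Eif4ebp2 had 920, 1031 and 992 counts in replicates 1, 2 and 3, against 4, 3 and 18 for its paralog Eif4ebp1. The other members under the limit were Eef2kmt, an eEF2 lysine methyltransferase, with 9, 19 and 26 counts and Eif3j2 with 17, 17 and 11. Eef2kmt was under 1 CPM in replicate 1 and Eif3j2 in replicate 3, while Eif4ebp1 was over it in replicate 3 alone.

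**Figure D1:**
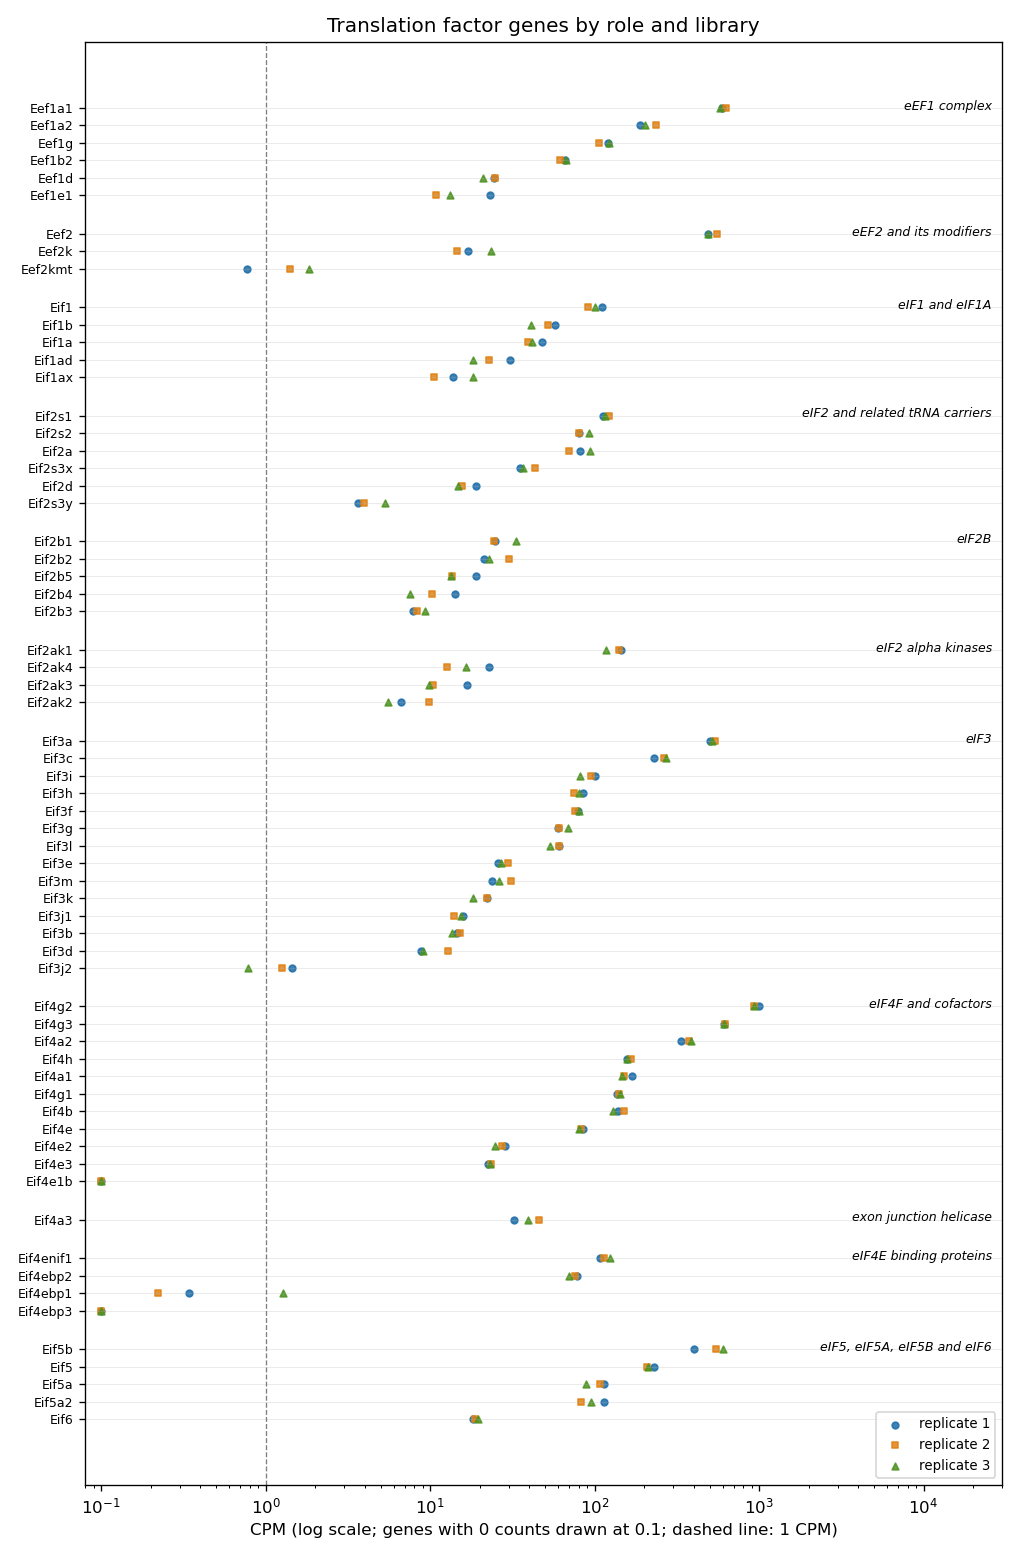
CPM on a log axis of each of the 64 translation factor genes, grouped by role, with 1 point per library and a dashed line at 1 CPM. 59 genes lie to the right of the line in all 3 libraries, and the points of most genes nearly coincide.

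Eef1a2 was present at a high level but below Eef1a1 in every library. Eef1a2 had 2216, 3181 and 2856 counts in replicates 1, 2 and 3, against 6971, 8536 and 8195 counts for Eef1a1. As CPM these were 189, 235 and 202 for Eef1a2 (209 ± 23.7, SD, n = 3) and 594, 630.4 and 581 for Eef1a1 (602 ± 25.7). The 2 genes did not overlap, and both were highest in replicate 2. Per kilobase, Eef1a2 averaged 100.1 ± 11.4 CPM and Eef1a1 241 ± 10.3 CPM, which placed Eef1a1 highest among the members, then Eef2, then Eef1a2. These places depend on the divisor: by undivided CPM, Eef1a1 ranked 3, Eef2 6 and Eef1a2 10 among the members. The log2 ratio of Eef1a2 over Eef1a1 per kilobase was -1.39, -1.16 and -1.26 in replicates 1, 2 and 3, a mean of -1.27 ± 0.12 (SD) with a limma standard error of 0.12. Eef1a2 was thus lower in 3 of 3 libraries, by 2.42-fold (limma adjusted p = 9.29e-05 over 12140 genes with a length). That call is common for so high a gene, since 99.2% of all genes were called below Eef1a1 and 0.453% above it. An exact two-sided sign-flip test gave p = 0.25, the smallest that 3 libraries allow. Eef1a2 supplied 25.7% ± 1.52 of the counts of the pair and 29.3% ± 1.65 per kilobase.

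Eef1a2 was below Eef1a1 with every divisor, but the size depended on it. Without division by length the log2 ratio was -1.53, by coding length -1.54 and by the longest annotated transcript -1.75. Divided by the positions whose 100-base or 50-base words are unique to the gene, it was -2.19 and -3.0. Taking each gene relative to the median of genes of like GC content, in 20 bins, moved it the other way, to -0.38 (limma adjusted p = 0.0200). GC content was taken from the transcript with the longest coding sequence, and was 60.6% for Eef1a2 and 47.4% for Eef1a1. The ratio of Eef1a1 to Eef1a2 thus ran between 1.31-fold and 7.98-fold with the divisor.

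**Figure D2:**
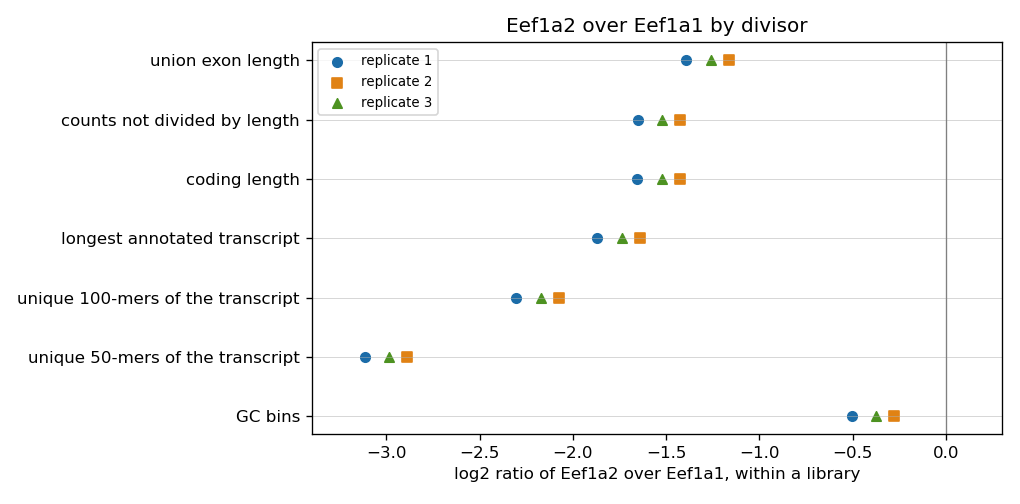
Log2 ratio of Eef1a2 over Eef1a1 in each of the 3 libraries, with the counts set side by side in 7 ways. Every point lies below 0, from means of -0.38 with GC bins to -3.0 with unique 50-base words, and replicate 1 is the lowest and replicate 2 the highest in each row.

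The other elongation genes ranged widely. Eef2, the translocase, was at 490.0, 557 and 489 CPM in replicates 1, 2 and 3, and its 154 ± 11.7 CPM per kilobase were the second highest of the members. Eef2k, the kinase that inactivates eEF2, was at 17.0, 14.5 and 23.5 CPM, highest in replicate 3. Of the eEF1B subunits, which recharge eEF1A with GTP, the scaffold Eef1g was at 44.8 ± 3.61 CPM per kilobase, the exchange factor Eef1b2 at 25.6 ± 1.13 and the exchange factor Eef1d at 3.60 ± 0.327. That order held in 3 of 3 libraries. Eef1g is uncertain, since 64.3% of its 50-base words occur in 5 pseudogenes. Eef1e1, a scaffold protein of the aminoacyl-tRNA synthetase complex, was at 23.1, 10.9 and 13.2 CPM, high in replicate 1. In CPM it was below Eef1d (24.4, 24.7 and 20.9) in each library, but per kilobase the order of these genes was mixed.

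The scaffold genes of eIF4F, which recruits capped mRNA, and their paralog Eif4g2 were unequal. Eif4g2 encodes the scaffold DAP5, which lacks the eIF4E-binding part, and had the most counts of all members, at 1005, 930.3 and 932 CPM in replicates 1, 2 and 3. Eif4g3 was next at 609, 625 and 612 CPM, and Eif4g1, the canonical scaffold, was at 137, 139.9 and 144 CPM. The 3 genes did not overlap and each was nearly level across libraries. Per kilobase, Eif4g2 was 4.90-fold above Eif4g1 (log2 2.29 ± 0.096 SD, limma adjusted p = 1.93e-05). Eif4g3 was 2.90-fold above it (log2 1.54 ± 0.039, limma adjusted p = 5.83e-05), each in 3 of 3 libraries, and 13.2% of all genes were called above Eif4g1 and 79.6% below it. Both stayed above Eif4g1 with every divisor and with GC bins. The log2 ratio ran from 1.85 (GC bins) to 3.59 (coding length) for Eif4g2. For Eif4g3 it ran from 1.54 (union exon) to 2.23 (unique words). The 2.23 comes from length, since 0% of the 50-base words of Eif4g3 and 0.04% of those of Eif4g1 occur elsewhere. The Eif4g3 transcript used for words has 5289 bp, against 11063 bp of union exon. Eif4g2 held 55.8% ± 1.36 of the counts of the 3 genes, Eif4g3 36.0% ± 1.06 and Eif4g1 8.19% ± 0.358.

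The helicase and cap-binding genes also differed between paralogs. Eif4a2 was at 334, 378 and 388 CPM and Eif4a1 at 169, 150.4 and 146 CPM in replicates 1, 2 and 3. The first was higher in 3 of 3 libraries, by 1.92-fold per kilobase (log2 0.94 ± 0.23, limma adjusted p = 0.00088), where 5.82% of all genes were called above Eif4a1 and 88.8% below it. With the divisor the log2 ratio ran from 0.59 (unique 100-base words) to 1.47 (longest annotated transcript). Of the Eif4a1 transcript, 65.3% of 50-base words occur in 8 pseudogenes. Of the Eif4a2 transcript, 26.2% occur in 3 other genes, 2 of them pseudogenes. The counts of both genes are therefore uncertain, those of Eif4a1 more so. Eif4e2, a cap-binding repressor, was at 3.79, 3.66 and 3.29 CPM per kilobase, Eif4e3 at 8.98, 9.34 and 9.21 and Eif4e, the main cap-binding protein, at 14.1, 13.7 and 13.3. The 3 genes did not overlap per kilobase, but the order of Eif4e2 and Eif4e3 depended on length: in counts Eif4e2 was the higher in each library, at 28.4, 27.5 and 24.7 CPM against 22.6, 23.5 and 23.2 CPM for Eif4e3. Eif4e3 lay 1.49-fold below Eif4e (log2 -0.57 ± 0.064, limma adjusted p = 0.00371). Eif4e2 lay 3.83-fold below it (log2 -1.94 ± 0.066, limma adjusted p = 3.49e-05), and 72.2% of all genes were called below Eif4e and 18.3% above it. Both stayed below Eif4e with every divisor. The log2 ratio ran from -0.57 (union exon) to -1.83 (undivided counts) for Eif4e3. For Eif4e2 it ran from -0.84 (unique 100-base words) to -2.36 (GC bins). Of the words of Eif4e2, 0% occur elsewhere, so its -0.84 rests mainly on length. The transcript used for words has 2869 bp, against 7497 bp of union exon. The helicase cofactors Eif4b and Eif4h, at 31.3 ± 2.56 and 28.9 ± 1.10 CPM per kilobase, lay close together.

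Among the proteins that hold eIF4E, Eif4ebp2 stood at 78.4, 76.1 and 70.3 CPM, and Eif4enif1, the eIF4E transporter, at 108, 114 and 124 CPM. Eif4ebp1 was at 0.341, 0.222 and 1.28 CPM and was too low for the ratio test. Eif4a3, the helicase of the exon junction complex, was at 32.2, 46.1 and 39.5 CPM.

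The paralogs of the scanning factors eIF1 and eIF1A gave a mixed picture. Eif1b was at 51.4, 46.3 and 36.5 CPM per kilobase and Eif1 at 52.8, 43.4 and 48.2, and they overlapped (log2 ratio -0.11 ± 0.26, limma adjusted p = 0.523). This depends on length: with undivided counts Eif1b was called lower (log2 -1.01, limma adjusted p = 0.000581). The counts of Eif1 are also uncertain, since 31.6% of its 50-base words occur in 18 other genes, 17 of them pseudogenes. As levels per kilobase, 92.2% of all genes were called below Eif1 and 3.83% above it. X-linked Eif1ax, at 2.61, 2.02 and 3.44 CPM per kilobase, was below Eif1a, at 11.6, 9.50 and 9.98, in 3 of 3 libraries (log2 ratio -1.96 ± 0.38, limma adjusted p = 3.69e-05), where 64.1% of all genes were called below Eif1a and 22.8% above it. That log2 ratio was -0.81 by coding length and -2.96 over unique 50-base words. Eif1ad, which carries an eIF1A-like domain, was at 30.8, 22.9 and 18.1 CPM, highest in replicate 1.

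The 3 subunits of eIF2, which carries the initiator tRNA, were closer together than the paralogs of its gamma subunit. Eif2s1, the alpha subunit that stress kinases phosphorylate, was at 22.7, 24.6 and 23.2 CPM per kilobase in replicates 1, 2 and 3, the beta subunit Eif2s2 at 11.8, 11.98 and 13.7 and the X-linked gamma subunit Eif2s3x at 9.23, 11.4 and 9.70. Eif2s1 was the highest in each library. Pseudogenes share 36.2% of the 50-base words of Eif2s3x and 27.8% of those of Eif2s2, against 8.49% for Eif2s1. The counts of Eif2s3x and Eif2s2 are therefore uncertain. The Y-linked Eif2s3y was at 3.67, 3.99 and 5.31 CPM, the lowest mean of the detected members, and Eif2s3x at 35.2, 43.6 and 37.0 CPM. Per kilobase, Eif2s3y was 9.53-fold lower (log2 -3.25 ± 0.33, limma adjusted p = 7.37e-07), with 63.4% of all genes called below Eif2s3x and 23.1% above it. The log2 ratio was -2.63 with GC bins. The Y-linked genes Ddx3y (17.0, 19.9 and 27.8 CPM), Uty (10.2, 7.68 and 10.3 CPM) and Kdm5d (8.18, 13.3 and 10.9 CPM) were present in every library beside Xist, the RNA of the inactive X, at 15.3, 14.99 and 12.04 CPM. Their part in the Eif2s3y to Eif2s3x ratio was not tested. Eif2a and Eif2d, which deliver tRNA to the ribosome outside the eIF2 route, were at 13.4 ± 1.95 and 2.24 ± 0.306 CPM per kilobase.

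The 5 genes of eIF2B, the exchange factor that reloads eIF2 with GTP, ranked 36 to 57 among the members by undivided CPM. Per kilobase they ranked 32 to 58, and not all were low. The means of Eif2b2 and Eif2b1, 13.1 and 10.7 CPM per kilobase, lay near those of Eif2s2 and Eif2s3x, 12.5 and 10.1. Eif2b1 (alpha) was at 24.8, 24.4 and 33.5 CPM, Eif2b2 (beta) at 21.2, 30.1 and 22.8, Eif2b5 (the catalytic epsilon subunit) at 19.1, 13.6 and 13.4, Eif2b4 (delta) at 14.2, 10.3 and 7.51 and Eif2b3 (gamma) at 7.93, 8.34 and 9.28. No subunit exceeded 33.5 CPM in any library. Per kilobase the highest mean, of Eif2b2, was 10.03-fold above the lowest, of Eif2b3, whereas the fold between the extremes, Eif2b1 and Eif2b3, was 3.24 for undivided counts. Of the 4 kinases that phosphorylate eIF2 alpha, Eif2ak1 (HRI, the heme-regulated kinase) was at 145, 141 and 117 CPM and held 78.5% ± 2.57 of their counts. Eif2ak4 (GCN2, which senses amino acid shortage) was at 22.8, 12.7 and 16.6 CPM, Eif2ak3 (PERK, of the endoplasmic reticulum) at 16.7, 10.4 and 9.92 and Eif2ak2 (PKR, activated by double-stranded RNA) at 6.65, 9.82 and 5.53. Eif2ak1 exceeded the other 3 in every library, also per kilobase, where its share was 80.4% ± 2.03. Genes on the other strand overlap 11.6% of the exon bases of Eif2ak1 and the sources used here do not say whether reads were counted by strand.

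The eIF3 complex, which holds the small subunit ready for mRNA, spanned a wide range. Of its 14 genes, 13 were detected. Eif3a was at 502, 539 and 520.3 CPM and Eif3c at 231, 264 and 272 CPM, both among the 10 members with the most counts. Per kilobase Eif3c led with 72.8 ± 6.25 CPM and Eif3a followed with 59.6 ± 2.12, in that order in 3 of 3 libraries. Eif3d, a subunit with a cap-binding surface, had the lowest mean of the detected eIF3 genes at 1.78, 2.57 and 1.83 CPM per kilobase, below Eif3j1 in 2 of 3 libraries. The ratio of the mean levels at the ends was 35.3, and the folds in the 3 single libraries had an SD of 6.63. By coding length the ratio was 21.4, with Eif3a and Eif3b at the ends. Eif3f, at 79.2, 76.1 and 80.3 CPM, was among the steadiest. Eif3j2, at 0.609, 0.528 and 0.328 CPM per kilobase, is a near copy of Eif3j1, at 2.72, 2.41 and 2.65, with 100% identity over 783 aligned coding columns. Its log2 ratio of -2.28 ± 0.43 (limma adjusted p = 7.16e-05, with 28% of all genes called below Eif3j1 and 56.8% above it) is uncertain, because reads from the shared part cannot be assigned, and it was 0.10 (limma adjusted p = 0.627) over unique 50-base words and -3.58 by coding length.

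**Figure D3:**
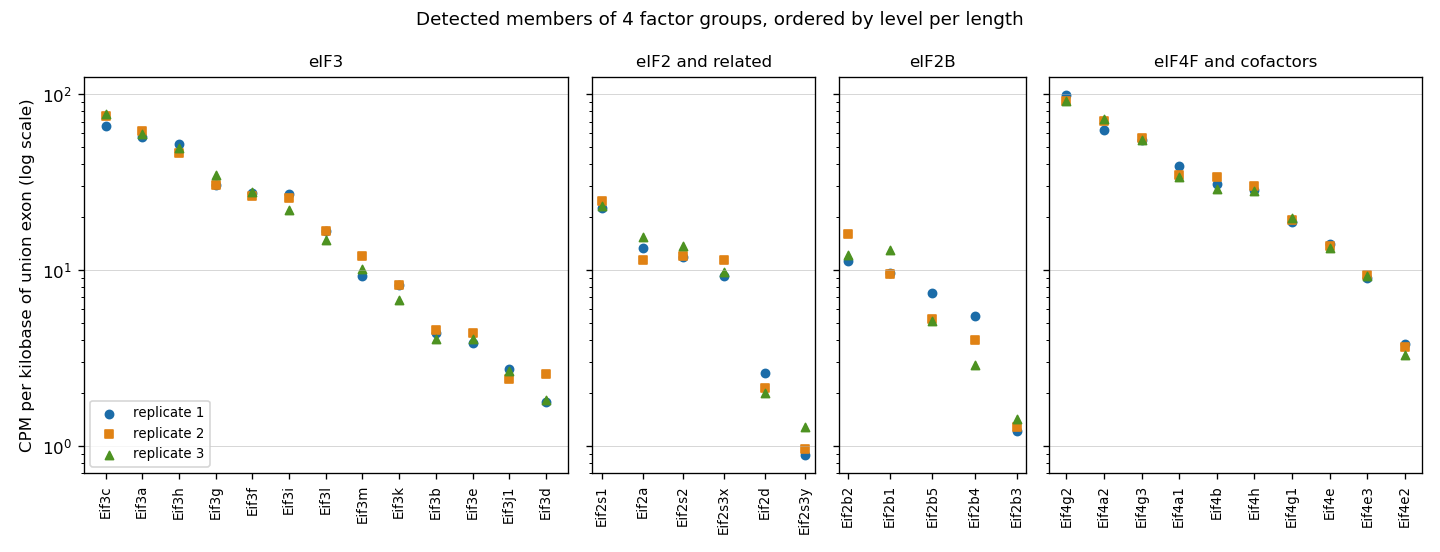
CPM per kilobase of exon on a log axis for the detected genes of each group, ordered by mean, with 1 point per library. The groups are eIF3, eIF2 with related tRNA carriers, eIF2B, and eIF4F with its cofactors and paralogs such as Eif4g2. In eIF3 the genes run from Eif3c at 72.8 to Eif3d at 2.06, and the libraries lie closer together than the ends of each group.

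Among the factors that act at subunit joining and later, Eif5b, the GTPase that joins the subunits, was at 403, 544 and 602 CPM in replicates 1, 2 and 3. Eif5, which activates GTP hydrolysis by eIF2, was at 229, 207 and 212 CPM. Eif6, which keeps the large subunit from joining early, was at 18.2, 18.8 and 19.6 CPM. Eif5a2 was at 114, 83.0 and 94.7 CPM and Eif5a at 113, 108 and 88.1 CPM, both encoding eIF5A, the hypusine-bearing factor that relieves stalled ribosomes, and they overlapped. Per kilobase Eif5a2 was 2.25-fold lower in 3 of 3 libraries (log2 -1.17 ± 0.26, limma adjusted p = 5.40e-06, with 90.5% of all genes called below Eif5a and 4.26% above it). The call rests on exon length, 5027 bp for Eif5a2 and 2377 bp for Eif5a: without division the log2 ratio was -0.09 (limma adjusted p = 0.689), and by coding length -0.08 (limma adjusted p = 0.713). Over unique 50-base words it was -2.0.

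**Figure D4:**
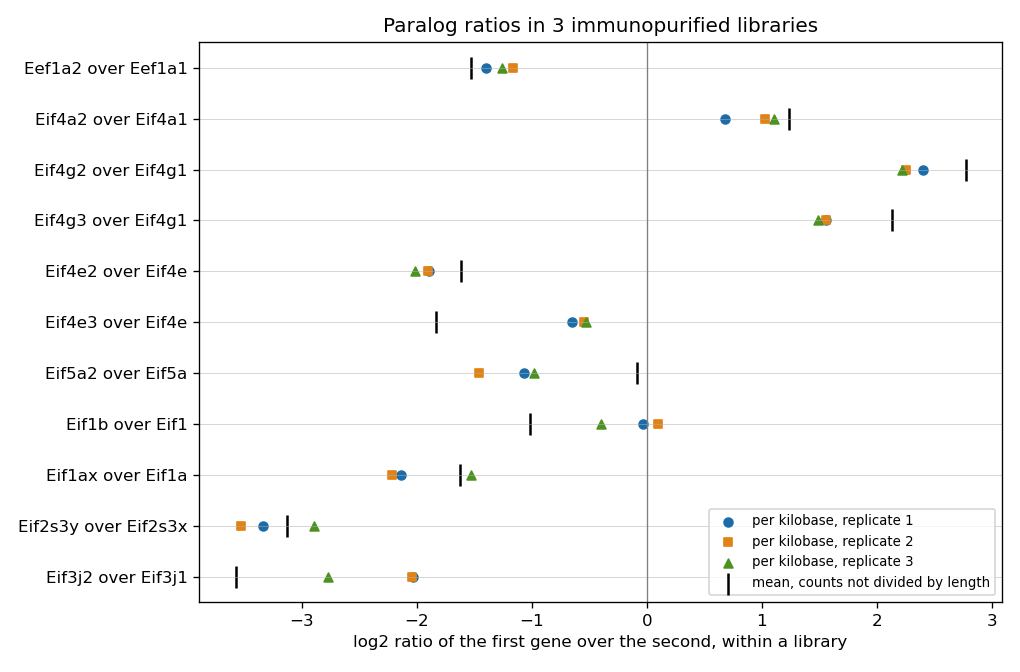
Log2 ratio within a library of the first over the second gene of 11 paralog pairs, per kilobase of exon (coloured points, 1 per library), with the mean for undivided counts as a black bar. Eif4a2, Eif4g2 and Eif4g3 lie right of 0, Eif1b over Eif1 straddles it, and the bar of Eif5a2 over Eif5a moves to -0.09.

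Of the 11 pairs tested, 10 passed at an adjusted p under 0.05. Most genes of any kind passed in the same fits. Of all genes, 99.2% were called below Eef1a1, and 56.8% were called above and 28% below Eif3j1. The count of pairs is therefore not particular to paralogs. Every ratio in one fit shares the deviations of the second gene, so these p-values rest on less information than limma assumes and can be too small, and no pair can go below 0.25 in the exact sign-flip test.

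No member was called variable between libraries. The median range of log2 CPM over the 3 libraries was 0.24 for the 61 members past the count filter and 0.42 for all 12559 genes, but the members were also deeper, with a median of 58.3 CPM against 19.9. In edgeR's quasi-likelihood fit, 0 of 61 members varied more than genes of the same level at an adjusted p under 0.05, against 0.0876% of all genes (11 of 12559). By DESeq2's dispersion outliers the number was also 0, against 0.223% of all genes. At an unadjusted p under 0.05 there were 2 members, Eif5b and Eef1e1, against 5.72% of all genes. Eif5b was lower in replicate 1 than in replicates 2 and 3 (F ratio 5.14, edgeR adjusted p = 0.726). Eef1e1 was higher there (F ratio 3.86, edgeR adjusted p = 0.83). Replicate 1 also had the lowest depth, the lowest share of reads in genes (61.9%) and the lowest sums of astrocyte and of neuronal markers, given above. The sums of microglial markers (33.1, 53.2 and 50.2 CPM in replicates 1, 2 and 3), of endothelial and mural markers (12.2, 16.7 and 12.4) and of the haemoglobin genes (1.02, 3.69 and 2.76) were lowest there too. That of oligodendrocyte markers was lowest in replicate 3. The part of these differences in Eif5b and Eef1e1 was not tested. Most of the astrocyte sum came from Slc1a2 and most of the neuronal sum from Snap25. Gad1 (493, 414 and 413 CPM in replicates 1, 2 and 3), Gfap (14.8, 11.8 and 11.5) and Aldh1l1 (9.80, 5.46 and 7.08) were instead highest in replicate 1. So were Tyrobp (7, 1 and 1 counts), Pecam1 and Cldn5, all low. Gad2 and P2ry12 were not lowest in replicate 1. For Eif5b, 16.9% of exon bases are overlapped by Rev1 on the other strand.

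The steadiest members past the filter were Eif4g3, Eif4e3, Eif4g1, Eif3f and Eif4e, with ranges of log2 CPM of 0.037, 0.056, 0.073, 0.078 and 0.085. The widest were Eef2kmt at 1.12, Eef1e1 at 1.08, Eif2b4 at 0.91, Eif2ak4 at 0.83 and Eif2ak2 at 0.81, all under 25 CPM in every library. Of the 61, 23, 20 and 18 were highest in replicates 1, 2 and 3 (37.7%, 32.8% and 29.5%, against 36.4%, 32.7% and 30.9% of all genes). In the same order, 22, 16 and 23 were lowest (36.1%, 26.2% and 37.7%, against 36.4%, 32.1% and 31.5%). The median log2 CPM of all 64 was 5.73, 5.62 and 5.37, a mean of 5.57 ± 0.18 (SD). Gene by gene the libraries lay closer. The median deviation of the 61 from their own mean log2 CPM was 0.0014, 0.023 and -0.033 in replicates 1, 2 and 3. For all genes past the filter it was 0.0004, 0.0027 and -0.0002. The summed CPM of the members was 7409, 7623 and 7491.

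**Figure D5:**
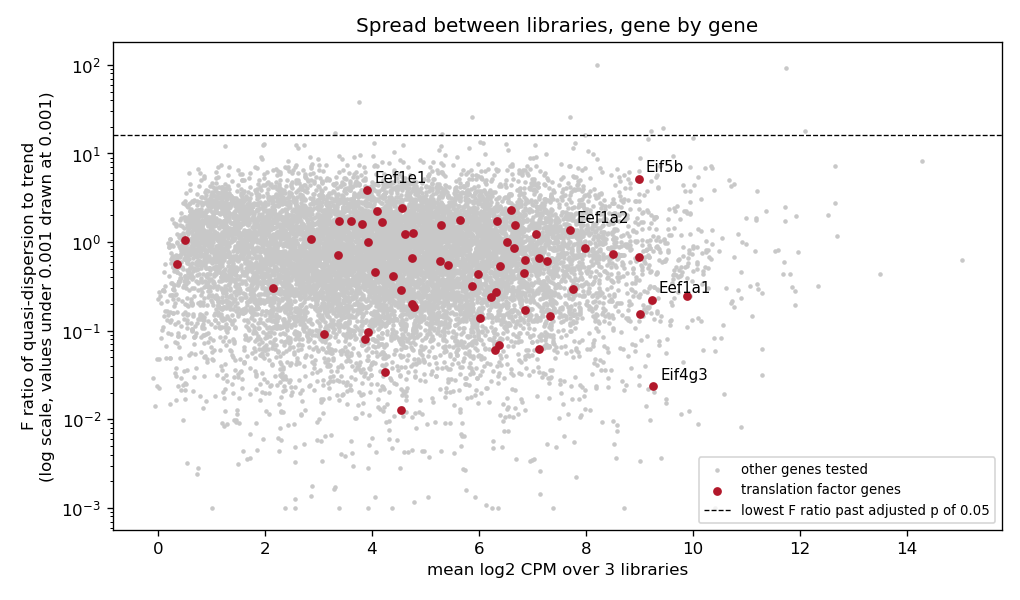
F ratio of each gene's quasi-dispersion to the trend on a log axis against its mean log2 CPM, for 61 translation factor genes (red) and 12498 other genes (grey). The dashed line is the lowest F ratio called, 16.1, and every member lies under it, with Eif5b highest at 5.14.

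Of 61 listed genes of 7 neighbouring sets, 58 were in the tables. All 58 were at 1 CPM or more in all libraries, against 37.3% of all genes, and 0 were called variable, against 0.0876%. In counts, the highest and lowest of the termination set were Gspt1, the release factor eRF3a, at 119.6, 138 and 134 CPM and Mcts1, a recycling factor, at 14.6, 11.2 and 15.9. Of the poly(A) partners these were Larp1, which binds mRNAs of the translation machinery, at 247, 229 and 239.9 CPM and the poly(A)-binding Pabpc4 at 9.72, 12.3 and 11.9. Of mTOR signalling they were the kinase Mtor at 111, 102 and 107 CPM and the S6 kinase Rps6kb2 at 2.64, 6.13 and 3.19.

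In the eIF2 stress set, Impact, an inhibitor of GCN2, was at 298, 316 and 365 CPM and Ppp1r15a, the inducible phosphatase subunit GADD34, at 1.11, 2.36 and 2.48. The factor modification set ran from Dph6, of diphthamide synthesis on eEF2, at 87.2, 69.5 and 87.0 CPM to Mettl13, an eEF1A methyltransferase, at 1.88, 2.36 and 2.69. Among helicases and repressors, Cyfip2, a partner of FMRP and of the WAVE complex, was at 1702, 1707 and 1820.1 CPM and Gigyf1, which binds the cap-binding repressor eIF4E2, at 2.22, 5.46 and 2.90. The mitochondrial factors ran from the elongation factor Gfm1 at 33.0, 44.6 and 35.7 CPM to the release factor Mtrf1 at 5.03, 4.21 and 8.22. Per kilobase, Cyfip2 stood at 245 CPM, close to the 241 of Eef1a1, and the others named from these sets were at 63.6 or lower.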

How the data were processed

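The deposited tables hold whole-number read counts by gene symbol for each library, which the authors left unscaled. Aligner and counter were STAR 2.0.0e and HTSeq on the mm10 build, per the submitters' processing notes. The library kit, the read length, the annotation release and the settings of the counter are not stated in the labels or headers. Reads in genes made up 61.9%, 67.6% and 70.7% of the tally in replicates 1, 2 and 3. Reads with more than 1 alignment (19.4%, 15.8% and 13.8%), outside features (16.4%, 14.2% and 12.8%) or in several features (2.37%, 2.51% and 2.65%) stayed out of library sizes and tests.

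CPM used TMM factors (edgeR 4.0.16, R 4.3.3) and log2 CPM a prior count of 2. The limit of detection was 1 CPM, to be reached in each of the 3 libraries. Floors are 3 counts and cover counting error only. The count filter was filterByExpr with a minimum count of 10, which left 12559 genes and a common biological coefficient of variation of 0.198. Variability between libraries was tested with an intercept-only robust quasi-likelihood fit, by comparing the quasi-dispersion of each gene with the trend (F ratio), with Benjamini-Hochberg adjustment over all genes; DESeq2 1.42.0 gave an alternative. Paralogs were compared by an intercept-only limma 3.58.1 fit of the log2 ratio of every gene to the second gene of the pair, adjusted over all genes. Lengths, positions and coding sequences came from GENCODE M21; all 64 members matched, and 96.7% of genes past the filter had a length. Union exon length can exceed that of the isoforms in these cells. The unique-word divisors took the unique share of the transcript with the longest coding sequence. They therefore also changed the length used. On simulated data, 100% of 199 genes raised 8-fold in 1 library were recovered among 12442 genes, with 4 others called. The widest range of log2 CPM of a member past the filter was 1.12, and recovery of changes that small was not measured.

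The members, role lists, pairs, pathway sets and tests were chosen with earlier results of these data known. Named with values were both genes of every pair, members of role lists of up to 6 genes, the 10 members highest in CPM, the 5 highest per kilobase, the 5 lowest detected, those not detected, the 5 with the widest and the 5 with the narrowest range, and the highest and lowest of each pathway set; Eif4b and Eif4h were added after their values were seen. Alternatives were the size factors, filters, prior count, length divisors and leaving out each replicate; unique 50-base and 100-base words, 20 GC bins and the divisors of folds within complexes were chosen after seeing the data.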

Additional observations from a re-analysis of the deposited data

How the results depend on the processing

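Eef1a2 was below Eef1a1 under every setting run, with log2 ratios of -1.33 to -1.21 when 1 replicate was left out. The number of pairs called was 10 or 11, members called variable stayed at 0, and members detected ran from 58 to 61. With 1 replicate left out, 59 to 60 members were detected and the median log2 CPM of the members was 5.49 to 5.68. Eif1b over Eif1 ran from -0.22 without replicate 2 to 0.031 without replicate 3 and turned to 0.21 with GC bins, neither called, and was called lower without division by length (-1.01), by the longest transcript (-0.66), by coding length (-1.01) and by unique 50-base (-1.21) and 100-base words (-0.97). Eif3j2 over Eif3j1 turned to 0.10 with unique 50-base words and was -0.49 with 100-base words (limma adjusted p = 0.0512), neither called, and Eif5a2 over Eif5a lost its call without division (-0.09) and by coding length (-0.08). The fold within eIF3 was 50.8 without division and 21.4 by coding length, and that within eIF2B 3.24 without division, 6.78 by the longest transcript and 4.80 by coding length. The cause was not tested. Over all genes, 11 were called variable in the fit reported, 66 with no count filter, 5 without the robust step, 4 to 9 with 1 replicate left out and 28 as DESeq2 outliers. No paired analysis was possible because all 3 libraries belong to 1 group. Reads that align to more than 1 place limit the genes with pseudogene copies: 34 of 64 members share a 50-base word with another gene, 14 over more than 10% of their transcript and 4 over more than 50%.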
